A study of Homo sapiens with 6 samples.

Results

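The TRIM family of ubiquitin ligases and their relatives was followed in REH cells given ML141. Its members were the entries of the deposited gene table whose symbol is TRIM, a number and at most 1 letter. There were 72 such entries among 26485. REH is an established human cell line of B-precursor acute lymphoblastic leukemia. The cells received 25 µM ML141, which inhibits the small GTPase CDC42, or the solvent DMSO, and RNA was taken after 24 h. Each group had 3 libraries, and the labels describe the RNA as coming from 3 independent experiments. All libraries come from 1 cell line at 1 dose and 1 time.

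TRIM proteins share an N-terminal tripartite motif of a RING finger, 1 or more B-boxes and a coiled coil. The RING recruits a ubiquitin-conjugating enzyme, the coiled coil makes dimers, and a variable C-terminal domain selects the target. Many members with a PRY-SPRY C-terminus act in innate antiviral defence and are induced by interferon, while members with a PHD finger and a bromodomain read histone tails and act as transcriptional cofactors in the nucleus.

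A count in at least 1 library was recorded for 45 members, 36 passed the low-count filter and were tested, and 27 were listed at 0 in all libraries. Of the 36 tested members 14 rose and 9 fell with ML141 at an adjusted p of 0.05 (edgeR's quasi-likelihood test, Benjamini-Hochberg over all 11454 genes tested), while 13 did not pass. Among all genes tested 26.7% were higher and 27.7% lower, 54.4% in all, so the share of called members (63.9%) was close to the background. The median log2 fold change of the tested members was 0.24, against 0.02 for all genes. The largest changes were an 11.3-fold rise of TRIM66, a chromatin cofactor, and a 2.59-fold fall of TRIM36, a microtubule-associated ligase.

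Library totals were 10436147, 12308039 and 10860349 counts with ML141 and 8284299, 10319697 and 10837224 with DMSO. Levels are given in CPM, counts scaled with TMM factors to a library of 1000000, and 1 count stood for 0.0754 to 0.130 CPM. All 12 precursor B cell markers examined had counts, although VPREB1, part of the surrogate light chain, had almost none. Of 6 T and NK cell markers CD3D, CD3G, CD2 and GNLY were at 0, and the 6 summed to 0.648 to 0.980 CPM with ML141 and 0.130 to 0.725 CPM with DMSO. Summed precursor B cell markers were 8689 to 9080 CPM with ML141 and 7108 to 7650 CPM with DMSO. Of these markers 11 were tested and 7 were called higher (63.6%, against 26.7% of all genes tested). CD24 alone was called lower, at -0.48 on the log2 scale (9.09%, against 27.7%). The 6 myeloid markers, FCGR3A among them at 0, summed to 32.7 to 36.1 CPM with ML141 and 49.1 to 50.1 CPM with DMSO. Most of that difference was MPO, at 26.2 ± 1.38 CPM with ML141 and 41.4 ± 0.364 CPM with DMSO, the one called of the 3 tested. The 7 markers of stroma, epithelium and erythroid cells, with EPCAM and HBB at 0, summed to 0.741 to 2.04 CPM with ML141 and 2.20 to 2.38 CPM with DMSO. The part of these differences in the values of TRIM members was not tested. The CDC42 mRNA was 202 ± 10.8 CPM with ML141 and 277 ± 2.50 CPM with DMSO (SD, n = 3 each), a log2 fold change of -0.46 (SE 0.075, adjusted p = 2.93e-04, edgeR). In bulk RNA fewer cells of a kind and less RNA per cell cannot be told apart.

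The 4 nuclear cofactors with a PHD finger and a bromodomain were all called, and in opposite directions. Of all genes tested 54.4% were called, so 4 calls say little about the class. TRIM24, TRIM28 and TRIM33 fell (75%, against 27.7% of all genes tested) and TRIM66 rose (25%, against 26.7%). With a minimum fold change of 1.5 in the test only TRIM66 stayed called. TRIM24 is a coregulator of nuclear receptors that also targets p53 for ubiquitination. Its level was 156, 154 and 152 CPM in ML141 replicates 1, 2 and 3, against 243, 244 and 221 CPM in DMSO replicates 1, 2 and 3. The groups did not overlap, and TRIM24 had a log2 fold change of -0.61 (SE 0.077, adjusted p = 3.94e-05, edgeR). TRIM28 (KAP1) is the corepressor that KRAB zinc finger proteins recruit to silence repeats and genes. It had 328, 409 and 359 CPM in the ML141 libraries, against 469, 537 and 543 CPM in the DMSO libraries. Every ML141 library lay below every DMSO library, and TRIM28 had a log2 fold change of -0.50 (SE 0.096, adjusted p = 9.53e-04, edgeR). TRIM33, a cofactor of SMAD signalling with a part in blood cell formation, had 175, 162 and 157 CPM with ML141, against 215, 213 and 198 CPM with DMSO. Its change was the smallest of the class, at -0.34 (SE 0.080, adjusted p = 0.00310, edgeR). With library totals in place of TMM factors the call of TRIM33 was lost (-0.17, adjusted p = 0.0517, edgeR).

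TRIM66 belongs to the same class, binds the heterochromatin protein HP1 and was first described in mouse testis. It lacks the RING that the other members of the class carry. It had 602, 629 and 638 counts in ML141 replicates 1, 2 and 3, against 35, 43 and 51 counts in DMSO replicates 1, 2 and 3. Scaled, these were 55.8, 47.4 and 54.8 CPM with ML141, against 4.54, 4.46 and 4.92 CPM with DMSO. The spread within each group was small beside the gap between them. The log2 fold change was 3.50 (SE 0.135, adjusted p = 1.97e-08, edgeR), place 20 of 11454 from the top, and it stayed between 3.44 and 3.67 under all 18 alternatives. The gene lies on the minus strand of chromosome 11 from 8612037 to 8682694 (hg38, GENCODE release 29), and 0.524% of its exon bases overlap RPL27A on the opposite strand. RPL27A, a ribosomal protein gene, had a log2 fold change of -0.02 (SE 0.076, adjusted p = 0.880, edgeR). The RefSeq table gives 3 start windows for TRIM66, and gene counts do not show which start was used. The window below is the one nearest the GENCODE gene start and is shown because this member changed most.

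TRIM66 (GRCh38.p14, chr11:8682616-8682915, minus strand, 250 bases before to 50 after the start): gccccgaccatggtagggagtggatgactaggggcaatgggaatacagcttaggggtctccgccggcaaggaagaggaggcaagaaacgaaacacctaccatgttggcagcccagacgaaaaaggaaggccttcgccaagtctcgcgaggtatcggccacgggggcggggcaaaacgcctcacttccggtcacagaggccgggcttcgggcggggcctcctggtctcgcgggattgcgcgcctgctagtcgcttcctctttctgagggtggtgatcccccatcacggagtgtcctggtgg

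None of 4 motifs searched on both strands, the interferon response element (GAAA, any 2 bases, GAAA), the amino acid response element TGATGNAA, the FOXO site GTAAACA and the cell cycle element TTTGAA, occurs in this window, so it carries no capitals. TTTGAA occurs once in the most downstream of the TRIM66 windows. That motif is present in 15.2% of all 35116 windows.

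**Figure D1:**
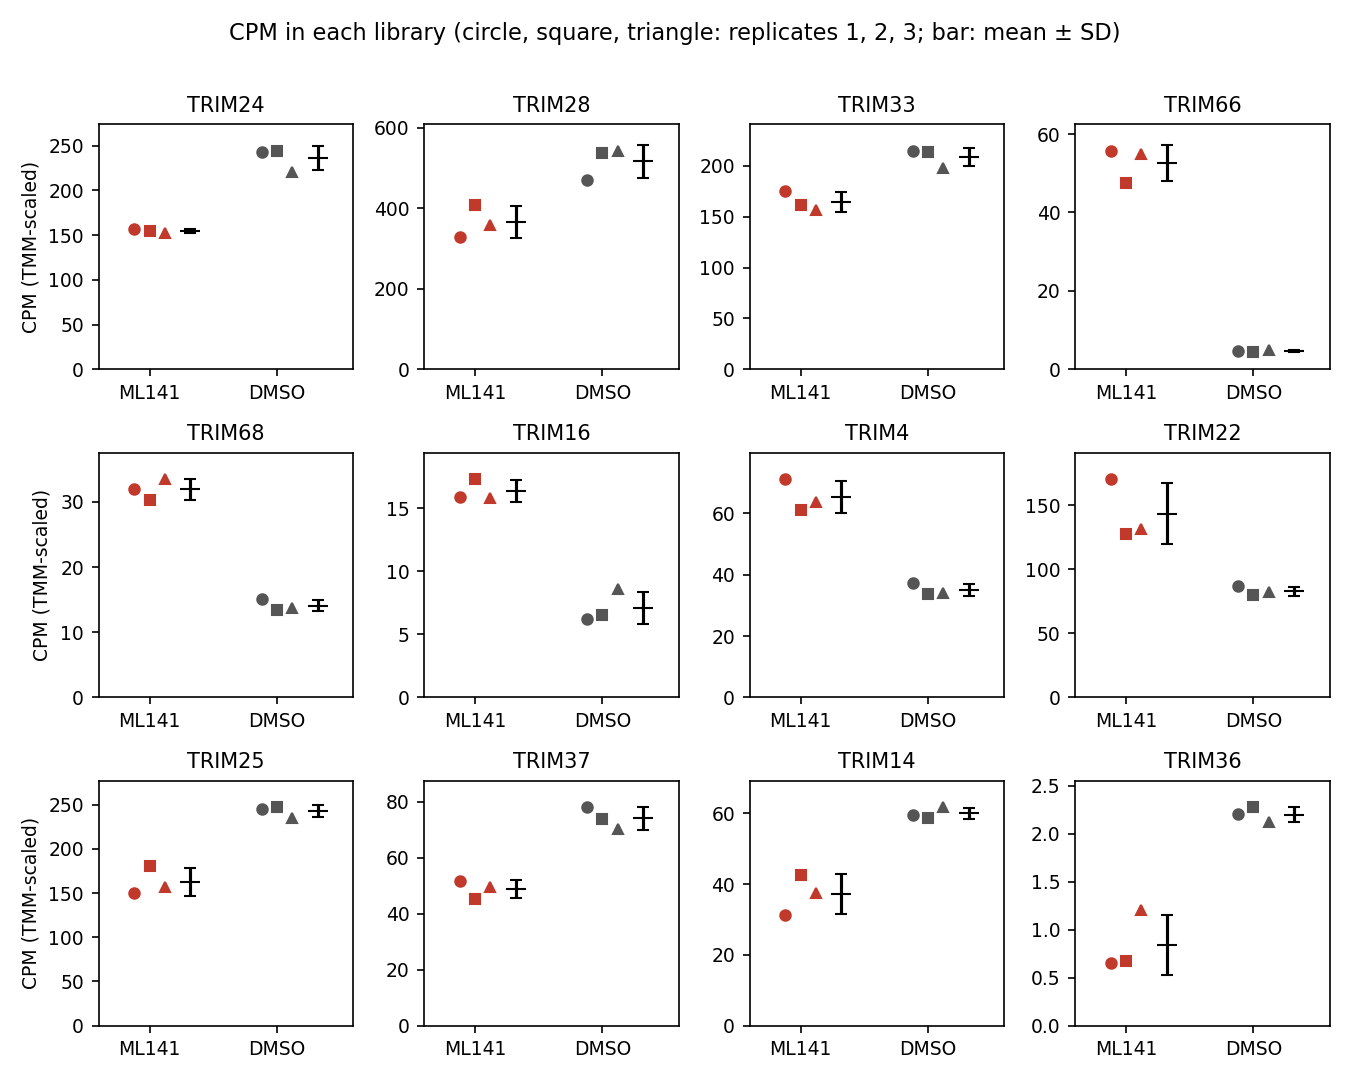
CPM on a linear axis in each library for 12 TRIM members, ML141 left of DMSO, with replicates 1, 2 and 3 as circle, square and triangle and the mean ± SD as a bar (n = 3 per group). In all 12 panels the ML141 libraries lie wholly above or wholly below the DMSO libraries. All 12 were picked from the called members, which favours such gaps. The groups did not overlap in 69.4% of tested members and 61.2% of all genes tested. TRIM66 has the widest gap for its level, at 47.4 to 55.8 CPM against 4.46 to 4.92 CPM.

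Of 15 tested partners of TRIM28 in gene silencing 2 rose (13.3%, against 26.7% of all genes tested) and 9 fell (60.0%, against 27.7%). Their median was -0.37, against 0.02 for all genes. SUMO2, whose product is attached to TRIM28 to recruit its partners, was 108 ± 4.86 CPM with ML141 and 204 ± 0.334 CPM with DMSO, a log2 fold change of -0.92 (SE 0.076, adjusted p = 1.75e-06, edgeR). CBX5, the HP1 alpha protein that binds TRIM28, was 807 ± 99.5 CPM with ML141 and 1516 ± 81.5 CPM with DMSO (-0.91, SE 0.0986). SETDB1, the histone H3 methyltransferase of the complex, was 1.29-fold higher, and FAM208A, a subunit of the HUSH silencing complex, was 1.26-fold higher. Both of these calls were lost without replicate 3 of both groups, with edgeR adjusted p = 0.0670 for SETDB1 and 0.0755 for FAM208A.

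Members with a PRY-SPRY C-terminus made up the largest class, with 41 entries, of which 17 were tested. Of these 9 rose (52.9%, against 26.7% of all genes tested) and 2 fell (11.8%, against 27.7%), with a median of 0.38. Among the 9, the calls of TRIM41 and TRIM62 were lost with some libraries left out. TRIM68, a ubiquitin ligase known as a coactivator of the androgen receptor, had 31.96, 30.32 and 33.53 CPM in the ML141 libraries, against 15.04, 13.47 and 13.69 CPM in the DMSO libraries. The groups were more than 2-fold apart, with a log2 fold change of 1.18 (SE 0.117, adjusted p = 6.72e-06, edgeR). TRIM16, a member without a RING that takes part in the clearance of damaged lysosomes, had 15.9, 17.3 and 15.8 CPM with ML141, against 6.22, 6.53 and 8.58 CPM with DMSO. Its log2 fold change was 1.19 (SE 0.161, adjusted p = 7.24e-05, edgeR). Of the TRIM16 exon bases 29.2% are also annotated to AC005324.3 on the same strand, and the gene has a close copy, TRIM16L, so how reads were divided is uncertain. TRIM16L itself had 31, 35 and 21 counts with ML141, against 17, 15 and 12 counts with DMSO, and did not pass (log2 fold change 0.60, SE 0.312, adjusted p = 0.121, edgeR). It passed with library totals (adjusted p = 0.0493, edgeR). TRIM4, a ligase of the RNA sensor RIG-I, had 71.2, 61.1 and 63.8 CPM in the ML141 libraries, against 37.3, 33.8 and 34.1 CPM in the DMSO libraries. Every ML141 library was above every DMSO library, and the rise was 1.86-fold (SE 0.102 on the log2 scale, adjusted p = 1.81e-05, edgeR).

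Of the 10 members listed as induced by interferon, 8 were tested, of which 4 rose (50%, against 26.7% of all genes tested) and 2 fell (25.0%, near the 27.7% of all genes). TRIM22, an antiviral factor also induced by p53, had 171, 128 and 132 CPM in ML141 replicates 1, 2 and 3, against 86.7, 79.7 and 82.1 CPM in the DMSO libraries. ML141 replicate 1 was the highest, and the groups did not overlap. The log2 fold change of TRIM22 was 0.79 (SE 0.112, adjusted p = 1.05e-04, edgeR). TRIM21, the cytosolic antibody receptor known as the Ro52 autoantigen, had 42.7, 36.05 and 39.03 CPM with ML141, against 26.7, 25.7 and 25.6 CPM with DMSO. That was a 1.51-fold rise (adjusted p = 6.37e-04, edgeR). TRIM5, which restricts retroviral capsids, had 81.9, 70.2 and 70.9 CPM with ML141, against 58.2, 50.2 and 46.9 CPM with DMSO. It rose 1.44-fold (adjusted p = 0.00151, edgeR). TRIM38, a regulator of Toll-like receptor signalling, rose 1.30-fold, to 119 ± 4.34 CPM with ML141 against 91.3 ± 11.9 CPM with DMSO (SD, n = 3 each).

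The members that fell in this group were TRIM25 and TRIM14. TRIM25, which ubiquitinates RIG-I, had 150.2, 180.3 and 157 CPM in the ML141 libraries, against 245, 247 and 235 CPM in the DMSO libraries. The log2 fold change was -0.58 (SE 0.086, adjusted p = 1.52e-04, edgeR), and all ML141 libraries lay below all DMSO libraries. TRIM14, an adaptor at the mitochondrial antiviral protein MAVS that has no RING, had 31.2, 42.5 and 37.6 CPM with ML141, against 59.5, 58.8 and 61.8 CPM with DMSO. Its log2 fold change was -0.69 (SE 0.117, adjusted p = 3.88e-04, edgeR). TRIM56 and TRIM26 did not pass, at 0.28 (SE 0.127, adjusted p = 0.0762, edgeR) and -0.32 (SE 0.419, adjusted p = 0.544, edgeR). TRIM56 passed with upper-quartile factors (0.0322), with library totals (0.0124), without a low-count filter (0.0338), without ML141 replicate 1 (0.0364) and without ML141 replicate 3 (0.0434), all edgeR adjusted p. TRIM34 and TRIM69 were under the filter.

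Promoters were searched for the letters of the interferon response element. The RefSeq promoter table matched 56 of the 72 members, 26 of them tested. GAAA, any 2 bases and GAAA, on either strand and counting overlapping matches, occurred in a window of 7 of these 26 members (26.9%), against 4.22% of 8644 tested genes and 3.57% of all 35116 windows. Some genes have several windows, which raises their share. Of the 11 matched members that rose 4 held it, and of the 6 matched members that fell 1 did. TRIM22, TRIM4 and TRIM8, which rose, and TRIM13, TRIM24 and TRIM28, which fell, had no window and were not searched. The 7 stretches follow so that the element can be compared between members that moved in different directions (GRCh38.p14, capitals mark the matched letters, each with up to 20 bases on either side).

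TRIM21 (chr11:4393653-4393705, minus strand): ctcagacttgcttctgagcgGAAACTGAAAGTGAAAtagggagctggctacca
TRIM5 (chr11:5685072-5685121, minus strand): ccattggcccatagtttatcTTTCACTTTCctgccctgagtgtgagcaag
TRIM16 (chr17:15683002-15683051, minus strand): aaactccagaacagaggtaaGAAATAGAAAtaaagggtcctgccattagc
TRIM44 (chr11:35662720-35662769, plus strand): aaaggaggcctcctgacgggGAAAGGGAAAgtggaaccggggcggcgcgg
TRIM14 (chr9:98119219-98119268, minus strand): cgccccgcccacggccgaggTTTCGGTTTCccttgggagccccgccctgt
TRIM26 (chr6:30213565-30213620, minus strand): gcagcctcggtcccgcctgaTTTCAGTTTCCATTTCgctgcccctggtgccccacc
TRIM2 (chr4:153151926-153151975, plus strand): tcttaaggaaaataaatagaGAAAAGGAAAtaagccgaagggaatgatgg

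TRIM21, TRIM5, TRIM16 and TRIM44 rose, TRIM14 fell, and TRIM26 and TRIM2 did not pass. TRIM21 and TRIM26 each hold a pair of overlapping matches, the other 5 a single one. The other 3 motifs were about as frequent in tested members as in all tested genes. TGATGNAA and GTAAACA each occurred in 1 of 26 (3.85%), against 2.71% and 3.44% of tested genes, and TTTGAA in 3 (11.5%), against 13.7%. For both TGATGNAA and GTAAACA that member was TRIM2, which has several windows.

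Of 17 tested genes of RNA and DNA sensing and interferon signalling 7 were higher (41.2%, against 26.7% of all genes tested) and 4 lower (23.5%, against 27.7%), with a median of 0.19. JAK1, a kinase of the interferon receptors, rose 1.75-fold, to 262 ± 13.9 CPM with ML141 against 149 ± 3.92 CPM with DMSO (adjusted p = 4.91e-06, edgeR). IRF9, the DNA-binding subunit of the factor that acts on the interferon response element, was 9.26 ± 0.91 CPM with ML141 and 3.92 ± 0.21 CPM with DMSO, a log2 fold change of 1.24 (SE 0.179). TRAF3, an adaptor downstream of MAVS, was 1.86-fold lower, and MB21D1, the DNA sensor cGAS, 1.80-fold lower. DDX58, the RIG-I sensor that TRIM25 and TRIM4 act on, was named for that role after its value was seen. It was 73.1 ± 14.7 CPM with ML141 and 41.3 ± 6.20 CPM with DMSO (0.83, SE 0.149, adjusted p = 6.04e-04, edgeR).

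Of the ubiquitin-conjugating enzymes that RING members use, 12 were tested, of which 2 rose (16.7%) and 3 fell (25.0%), with a median of -0.05. Neither share exceeded that of all genes tested (26.7% higher and 27.7% lower). UBE2N, which builds lysine 63-linked chains, was 107 ± 9.02 CPM with ML141 and 239 ± 10.7 CPM with DMSO, 2.23-fold lower (adjusted p = 8.29e-07, edgeR). UBE2V2, a cofactor of UBE2N, was 1.39-fold lower. UBE2W, which ubiquitinates protein N-termini, was 1.58-fold higher. UBE2D2 was 1.21-fold higher (adjusted p = 0.0277, edgeR), a call lost without ML141 replicate 1 (0.0600) or 3 (0.0989) and without DMSO replicate 1 (0.0859), 2 (0.0959) or 3 (0.0606). It was also lost without replicate 1 (0.0993) or 3 (0.166) of both groups.

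**Figure D2:**
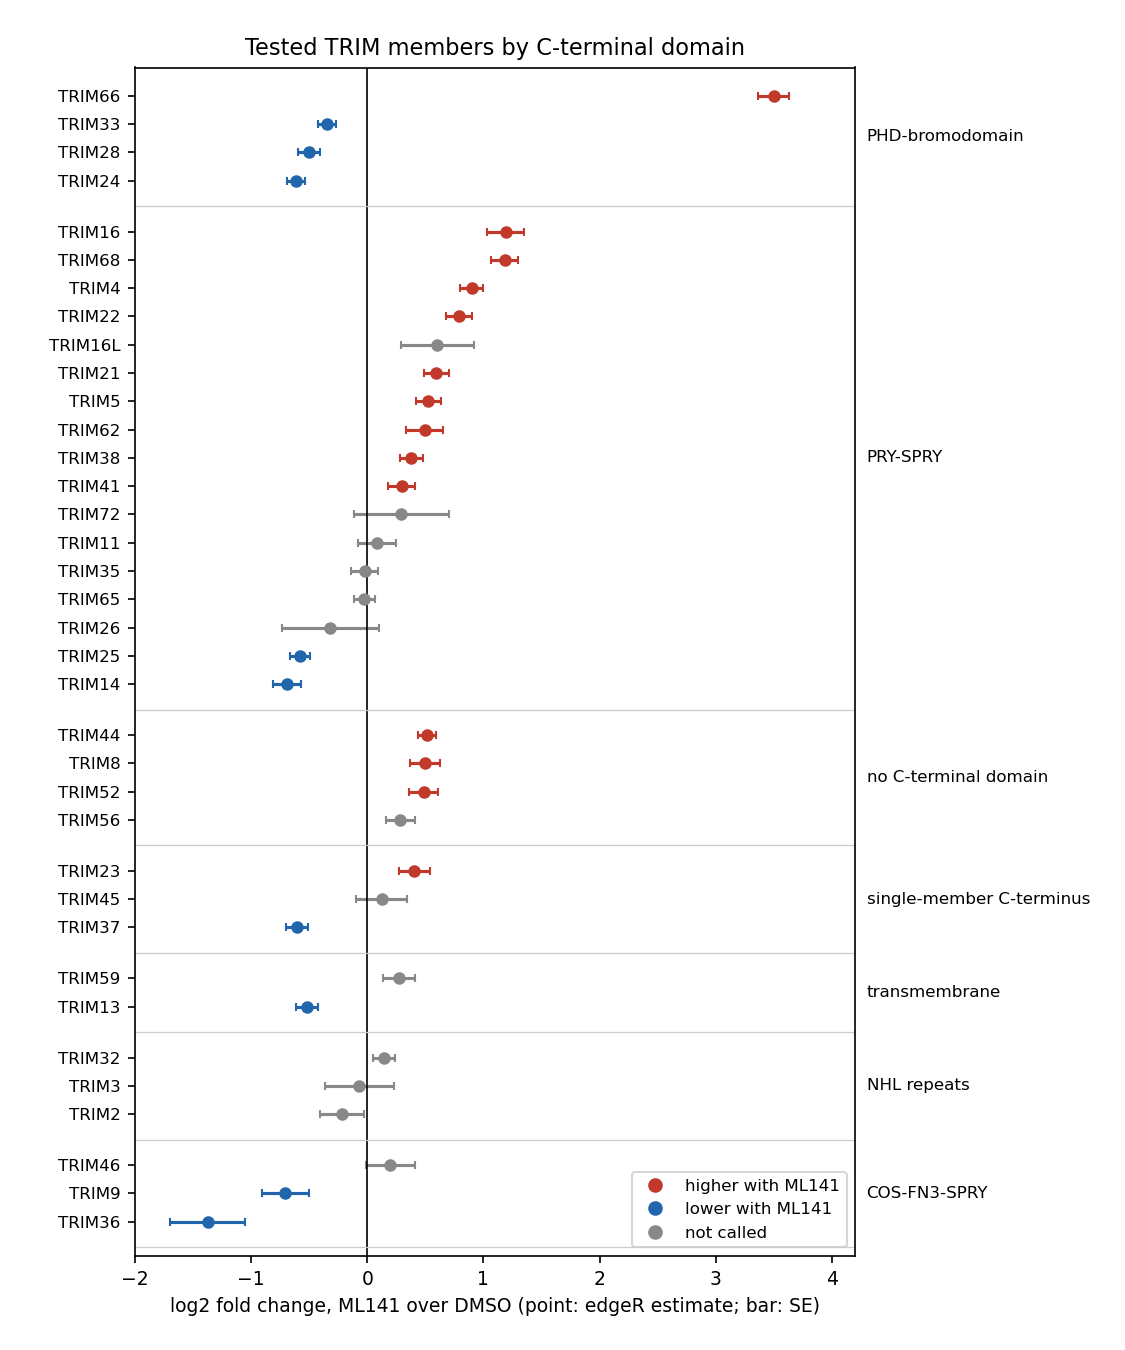
Log2 fold change, ML141 over DMSO, of the 36 tested TRIM members, grouped by C-terminal domain, with points at the edgeR estimate and bars of 1 SE. TRIM66 stands at 3.50 while the other members of its class lie from -0.61 to -0.34. Of the 17 PRY-SPRY members 9 are called higher (52.9%, against 26.7% of all genes tested).

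Among members with no named C-terminal domain 3 of the 4 tested rose (75%, against 26.7% of all genes tested). With 4 genes this share says little about the class. TRIM44, which carries a ubiquitin-binding zinc finger in place of a RING, had 362, 350.4 and 338 CPM with ML141, against 265, 239 and 232 CPM with DMSO. The groups did not overlap, and TRIM44 rose 1.43-fold (adjusted p = 2.06e-04, edgeR). TRIM52 and TRIM8, a regulator of cytokine signalling, had log2 fold changes of 0.49 (SE 0.123 and 0.130) and were higher. The call of TRIM52 was lost without replicate 3 of both groups (adjusted p = 0.0861, edgeR). Of the TRIM52 exon bases 8.89% overlap CTC-338M12.4 on the opposite strand. Of the TRIM8 exon bases 17.6% overlap AL391121.1 on the opposite strand, and these libraries carry no strand information.

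TRIM37, the ligase mutated in Mulibrey nanism and a brake on centriole assembly, had 51.8, 45.2 and 49.3 CPM in the ML141 libraries, against 78.0, 73.8 and 70.1 CPM in the DMSO libraries. It fell by 0.60 on the log2 scale (SE 0.095, adjusted p = 2.33e-04, edgeR), with no overlap between groups. Of the TRIM37 exon bases 5.52% overlap PPM1E and 6.60% overlap AC099850.1, both on the opposite strand. TRIM13, a ligase anchored in the endoplasmic reticulum, had 79.4, 71.3 and 73.1 CPM with ML141, against 95.03, 110.5 and 114 CPM with DMSO. It fell by 0.52 (SE 0.095, adjusted p = 7.03e-04, edgeR). Of its exon bases 11.1% are shared with KCNRG on the same strand and 4.69% with DLEU2 on the other. KCNRG had a log2 fold change of -0.21 (SE 0.417) and DLEU2, a noncoding RNA, of -1.35 (SE 0.149). Their part in the TRIM13 value was not tested. TRIM59, the other member with a membrane anchor, had 28.7, 23.0 and 23.0 CPM with ML141, against 22.3, 21.5 and 17.9 CPM with DMSO. It did not pass (0.28, SE 0.138, adjusted p = 0.108, edgeR) but did with upper-quartile factors (0.0282) or library totals (0.0122). Of its exon bases 22.1% overlap SMC4, a condensin gene, on the opposite strand, and 16.1% overlap AC079594.2 on the same strand. SMC4 had a log2 fold change of -1.17 (SE 0.096), and its part in the TRIM59 value was not tested.

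The microtubule-binding members with a COS box fell in 2 of 3 tested cases (66.7%, against 27.7% of all genes tested). With 3 genes this share says little about the class. TRIM36 had 7, 9 and 14 counts in ML141 replicates 1, 2 and 3, against 17, 22 and 22 counts in DMSO replicates 1, 2 and 3. In CPM these were 0.648, 0.679 and 1.20 with ML141, against 2.20, 2.28 and 2.12 with DMSO. All ML141 libraries were lower, with a log2 fold change of -1.37 (SE 0.321, adjusted p = 0.00333, edgeR). The ratio of summed counts was 0.382, with an exact Clopper-Pearson interval of 0.238 to 0.601 at 95% that covers counting error only. TRIM9, a ligase best known from neurons, had 4.354, 6.71 and 5.50 CPM with ML141, against 10.6, 7.98 and 8.77 CPM with DMSO. Its log2 fold change was -0.71 (SE 0.202, adjusted p = 0.0107, edgeR). That call was lost without replicate 1 (adjusted p = 0.0705, edgeR) or replicate 3 (0.0783) of both groups. TRIM46, which bundles axonal microtubules, did not pass (0.20, SE 0.213).

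None of the 3 tested members with NHL repeats passed edgeR's test. At an unadjusted p under 0.05 the count was 0 as well, and it was 0 with DESeq2 and limma-voom. TRIM32, a ligase mutated in a limb-girdle muscular dystrophy, had 42.9, 40.6 and 41.4 CPM with ML141, against 39.7, 36.1 and 37.3 CPM with DMSO, groups that did not overlap, and a log2 fold change of 0.14 (SE 0.097, adjusted p = 0.229, edgeR). It passed with upper-quartile factors (0.0410) and library totals (0.0126). TRIM2 and TRIM3 had log2 fold changes of -0.21 (SE 0.189) and -0.07 (SE 0.299).

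Small rises were found in TRIM23, which carries a GTPase domain of the ARF type, in TRIM62 and in TRIM41. TRIM23 rose 1.33-fold (adjusted p = 0.0199, edgeR), a call lost without ML141 replicate 1 (0.0620) or 3 (0.0536) or DMSO replicate 2 (0.0935), and without replicate 1 (0.0562) or 3 (0.104) of both groups. TRIM62 rose 1.41-fold (adjusted p = 0.0212, edgeR), a call lost without ML141 replicate 2 (0.0760), DMSO replicate 1 (0.0598) or DMSO replicate 3 (0.0934), and without replicate 2 (0.0652) or 3 (0.0967) of both groups. TRIM41 rose 1.23-fold (adjusted p = 0.0440, edgeR), a call lost without ML141 replicate 2 (0.0787) or 3 (0.0889) or DMSO replicate 1 (0.171) or 2 (0.130), and without replicate 1 (0.148), 2 (0.174) or 3 (0.0570) of both groups.

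The members that did not pass included some at a well-measured level. TRIM65 had 58.8 ± 3.64 CPM with ML141 and 59.7 ± 2.56 CPM with DMSO (SD, n = 3 each). TRIM35 had 35.6 ± 4.57 CPM with ML141 and 36.1 ± 1.25 CPM with DMSO. The log2 fold changes were -0.02 for both (SE 0.093 for TRIM65 and 0.115 for TRIM35), and both were above 0 with upper-quartile factors and library totals. TRIM11 and TRIM45 were at 0.09 (SE 0.165) and 0.12 (SE 0.217). TRIM72 had 33 counts with ML141 and 21 with DMSO in all.

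Taken per length of exon, the family was dominated by TRIM28. It stood at 123 CPM per kb with ML141 and 174 CPM per kb with DMSO, the first place of the family in both groups. Of the summed per-kb level of all members it held 26.4% with ML141 and 35.7% with DMSO. The place and the shares take every member at its count. Members in the HLA region of chromosome 6, whose level the counts do not measure, are thus included at or near 0. With ML141 TRIM22 came next at 48.0 CPM per kb, then TRIM25 at 28.3 and TRIM44 at 27.0. TRIM25 and TRIM44 overlapped between the ML141 libraries. With DMSO TRIM25 came next at 42.3 CPM per kb, then TRIM24 at 28.1 and TRIM22 at 27.7, which overlapped between libraries. TRIM66 held place 22 with ML141 and place 33 with DMSO, at 4.76 CPM per kb with ML141 and 0.419 CPM per kb with DMSO. Summed over all members and not per length, the family gave 2349, 2367 and 2245 CPM in ML141 replicates 1, 2 and 3, against 2338, 2413 and 2366 CPM in DMSO replicates 1, 2 and 3. These sums overlapped between the groups.

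**Figure D3:**
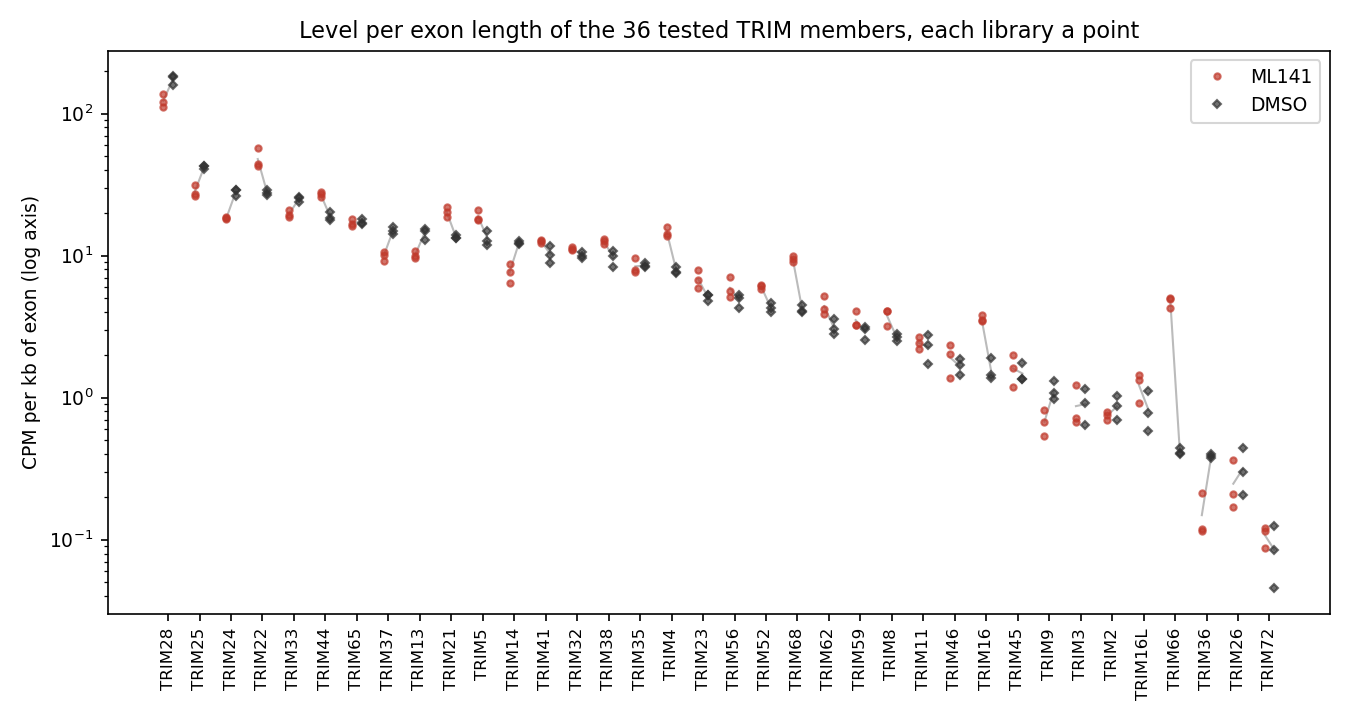
CPM per kb of exon on a log axis for the 36 tested TRIM members, ordered by their mean with DMSO, each library a point (ML141 circles, DMSO diamonds) and a line joining the means. TRIM28 is highest in both groups, at 123 CPM per kb with ML141 and 174 with DMSO, and TRIM66 shows the widest gap.

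In 25 of the 36 tested members every ML141 library lay on the same side of every DMSO library (69.4%), against 61.2% of all genes tested. Called changes above 2-fold were found in 3 members that rose (8.33%, against 6.76% of all genes) and 1 that fell (2.78%, against 6.24%). With a minimum fold change of 1.5 built into the test, TRIM66, TRIM68, TRIM16 and TRIM4 were higher and TRIM36 lower. The lower and upper quartiles were -0.32 and 0.50 on the log2 scale for the members and -0.38 and 0.40 for all genes.

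**Figure D4:**
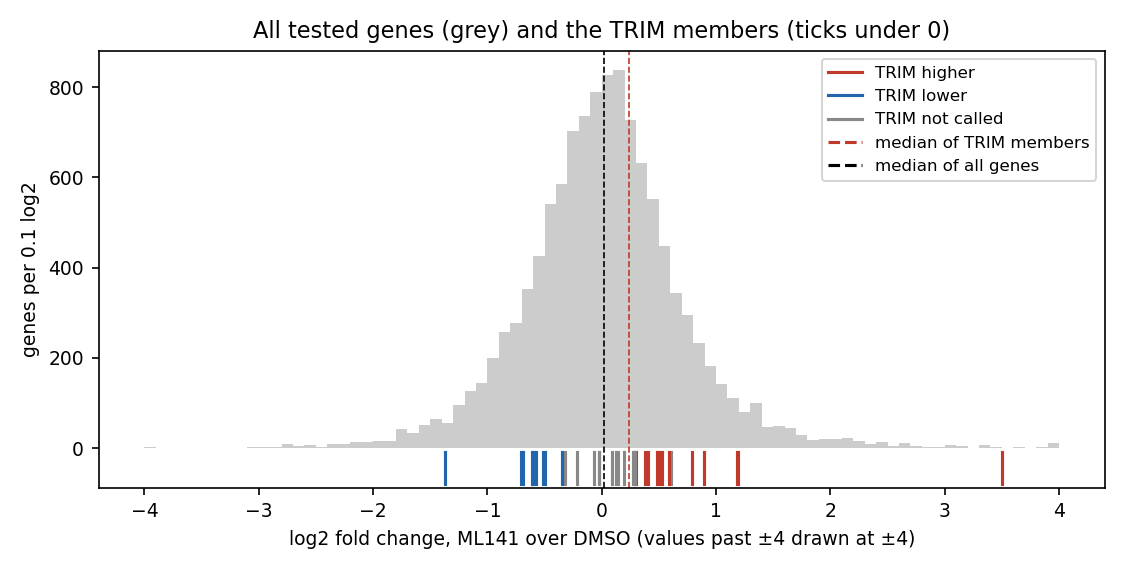
Histogram of log2 fold changes, ML141 over DMSO, of all 11454 tested genes in steps of 0.1, with each tested TRIM member as a tick under the axis and dashed lines at the median of the members (0.24) and of all genes (0.02). Most members lie inside the bulk of the distribution, with TRIM66 at 3.50 outside it.

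Of the members not tested 9 had a few counts. TRIM7 had 12 counts with ML141 and 4 with DMSO, a ratio of 2.33 with an exact Clopper-Pearson interval of 0.707 to 9.92. TRIM34 had 6 with ML141 and 3 with DMSO, and 86.9% of its exon bases are shared with the readthrough gene TRIM6-TRIM34. TRIM47 and TRIM69 had 3 counts each, all with ML141. TRIM71, TRIM17, TRIM50, TRIM54 and TRIM67 had 1 or 2.

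The members listed at 0 fell into separate kinds. TRIM10, TRIM15, TRIM27, TRIM31, TRIM39 and TRIM40 lie with TRIM26 on chromosome 6 between 28 and 34 Mb, the region of the HLA genes. There 57.8% of 187 protein-coding entries were at 0, against 26.8% of 18340 elsewhere and 24.9% of 798 on the rest of chromosome 6. RPS18, a ribosomal protein gene, and ABCF1 and DDX39B, which most cells use, were also at 0 there, so a 0 or a low count in this window does not measure the level of a member. Other genes there were well counted. HLA-B had 3853 counts with ML141 and 1843 with DMSO, and TUBB had 1430 with ML141 and 2528 with DMSO. What the read processing contributed was not tested. TRIM38, on chromosome 6 outside this window, had 4251 counts with ML141 and 2560 with DMSO. The other 21 members at 0 included the muscle ligases TRIM55 and TRIM63 and groups of close copies such as TRIM43 and TRIM43B, TRIM49, TRIM49B and TRIM49C, TRIM64, TRIM64B and TRIM64C, and TRIM73 and TRIM74, for which a 0 is uncertain. A 0 is also uncertain for TRIM6, with 31.7% of its exon bases shared with TRIM6-TRIM34 on the same strand. TRIM60 and TRIM61 share 14.0% and 33.2% with pseudogenes on the same strand, so the same holds for them. For the members at 0 outside the window with no such copy or overlap, a count of 0 allows up to 0.226 to 0.389 CPM per library, a limit of 3 counts.

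Genes of the family that carry other names were few. PML, the organiser of nuclear bodies, was 33.3 ± 3.41 CPM with ML141 and 25.0 ± 4.57 CPM with DMSO (log2 fold change 0.40, adjusted p = 0.0300, edgeR). MID1, a microtubule-binding ligase, was 11.7 ± 3.41 CPM with ML141 and 16.7 ± 1.25 CPM with DMSO (-0.51, adjusted p = 0.0439, edgeR). The call of PML was lost without ML141 replicate 2 (0.0838) or 3 (0.0984) or DMSO replicate 1 (0.119) or 2 (0.0808), and without replicate 2 (0.159) or 3 (0.0612) of both groups. That of MID1 was lost without ML141 replicate 1 (0.0939) or 2 (0.0600), without DMSO replicate 1 (0.0574), 2 (0.114) or 3 (0.125), without replicate 1 (0.0569), 2 (0.153) or 3 (0.0643) of both groups, with the stricter low-count filter (0.0504), with upper-quartile factors (0.130) and with library totals (0.194), all edgeR adjusted p. MID2, MEFV, CMYA5, TRIML1 and TRIML2 did not pass the filter and were not tested.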

How the data were processed

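RNA of REH cells was sequenced from TruSeq RNA v2 libraries, a kit that does not mark the strand, per the labels' protocols. The submitters' processing notes name hg38 as the build and bcl2fastq 2.19, featureCounts, Bowtie2, Trimmomatic, DESeq2 and Picard as tools, without roles. Neither their settings nor the annotation is given in the sources used here. The deposited table holds raw counts per gene symbol, which were used for all tests. It also holds scores, which are counts the authors divided by 1 size factor per library and rounded, and which were not used. The authors' deposited table gives a log2 fold change, a p-value and an adjusted p-value of their own comparison, used only where named.

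Groups and replicate numbers came from the sample titles. Genes passing filterByExpr (minimum count 10, minimum total 15) were scaled with TMM and tested with edgeR 4.0.16 (glmQLFit, glmQLFTest, R 4.3.3) on group alone, 2-sided, with a threshold of 0.05 over all genes tested. SE is the log2 fold change over the square root of F. In a simulation of this comparison with 11454 genes and 200 changed by 1 log2 unit, 95% were recovered with 8 false calls. It gave all genes the same dispersion and changed only well-counted genes, far fewer than the 6230 called in the data. Its rates therefore check the code and do not measure the error of the calls here. The labels speak of independent experiments, and the sample descriptions share a tag between the ML141 and DMSO libraries of each replicate number, but no label says what the tag stands for.

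Exon lengths and overlaps came from GENCODE release 29 basic (GRCh38), which matched all 72 members, and promoter sequences from RefSeq (GRCh38.p14). Members, lists and classes were chosen with earlier results of these data known. Every member may be named. Values per library were given for called members with the 8 smallest p in each direction, for the PHD-bromodomain class and for called changes over 2-fold, with some others added after their values were seen. In each comparison list up to 2 genes per direction with the smallest p were named. Alternatives tried were scaling by library totals, by DESeq2 size factors or by upper quartiles, no filter or a stricter one, the Wald test of DESeq2 (1.42.0), limma-voom (3.58.1), a replicate block, a minimum fold of 1.5, and each library or replicate number left out.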

Additional observations from a re-analysis of the deposited data

How the results depend on the processing

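The 14 higher and 9 lower members were also the counts with DESeq2 size factors, the stricter filter, the DESeq2 Wald test and limma-voom, and without a filter they were 15 and 9. With upper-quartile factors 17 were higher and 9 lower, and with library totals 18 and 8, scalings under which the median of all genes was 0.12 and 0.19, against 0.02 with TMM. The share of higher genes among all called was 49.1%, against 59.5% with upper-quartile factors and 66.1% with library totals. The median of the members was 0.34 with upper-quartile factors and 0.41 with library totals, and 0.14 to 0.29 with 1 library or replicate number left out. Leaving these out gave 10 to 14 higher and 8 to 9 lower members, and 4161 to 6567 changed genes of all tested, against 6230. A minimum fold of 1.5 left 1811 of all genes changed, 4 higher and 1 lower member, 2 silencing partners, 1 conjugating enzyme, 4 sensing genes and 0 of PML and MID1, and CDC42 (-0.46) no longer passed (edgeR adjusted p = 1.00). Of PML and MID1, 1 passed with upper-quartile factors, library totals or the stricter filter, and 0 to 1 with libraries left out, where conjugating enzymes passed in 3 to 6 cases, silencing partners in 8 to 13 and sensing genes in 11 to 13. Members that did not pass changed sign as follows. TRIM3, TRIM35 and TRIM65 were at 0.036, 0.076 and 0.078 with upper-quartile factors and at 0.11, 0.15 and 0.15 with library totals. With libraries left out TRIM3 ranged from -0.39 to 0.27, TRIM35 from -0.13 to 0.040, TRIM65 from -0.093 to 0.052, TRIM11 from -0.073 to 0.25, TRIM26 from -0.70 to 0.042 and TRIM45 from -0.070 to 0.29. The cause was not tested. With the replicate block 6979 genes changed, with 15 higher and 9 lower members, the added one being TRIM56 (edgeR adjusted p = 0.0274). Same-numbered libraries deviated together by r = 0.40, 0.092 and 0.19 across genes. Sample descriptions share a tag within each number. ML141 replicate 2 correlated best with DMSO replicate 3 (0.31), while the other libraries of unlike number had r from -0.39 to -0.025. Such deviations from means of 3 libraries cannot decide whether the numbers mark pairs. The main fit did not take them as pairs. Depth limits what can be said of members under the filter.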

Other observations

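The chromosome position of the members was looked at after their values were seen. Of the 7 tested members on chromosome 11 the test called 6 higher, namely TRIM66, TRIM68, TRIM22, TRIM21, TRIM5 and TRIM44, and TRIM3 did not pass. TRIM68, TRIM22, TRIM21 and TRIM5 are also among the PRY-SPRY members that rose, so this count and that of the class share genes. Among all genes tested 26.7% were higher and 27.7% lower. Between 4 and 9 Mb, where TRIM44 does not lie, 5 of 6 tested members were higher. Of the 19 other tested protein-coding genes there, olfactory receptors left out, 6 were higher (31.6%) and 2 lower (10.5%), with a median log2 fold change of 0.24. On chromosome 6 between 28 and 34 Mb, 15 of the 38 tested protein-coding genes were higher (39.5%) and 2 lower (5.26%), with a median of 0.38. Among the other protein-coding genes tested these shares were 26.2% and 28.9%. In this window 57.8% of 187 protein-coding entries were at 0, so its shares cover only the genes that could be counted. TRIM26, the 1 tested member there, was not called.

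The authors' deposited table has 13 higher members and 9 lower ones at an adjusted p of 0.05, and 22 of these were called in the same direction here. The member called here alone was TRIM41, with a log2 fold change of 0.29 and an adjusted p of 0.0606 in the authors' deposited table.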
